A study of Mus musculus with 11 samples.

Results

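The 10 genes described here encode proteins of the intercalated disc, the contact that joins cardiomyocytes end to end. They were taken from the count table by symbol for their known place in the disc, by a rule that uses no measured value, although earlier results of these data were known when the set was chosen. Each symbol matched 1 of the 55421 gene rows. They are Cdh2 and Ctnna3 of the adherens junction, Gja1 of the gap junction, Dsp, Jup, Pkp2, Dsg2 and Dsc2 of the desmosome, and the Xin genes Xirp1 and Xirp2. RNA came from the hearts of 11 female C57BL/6J mice aged 8 weeks. In 8 mice the left anterior descending coronary artery was ligated permanently to cause a myocardial infarction (MI), and tissue of the infarct and border zone was taken on day 3. Of these, 4 mice received GI254023X, an inhibitor of the protease ADAM10, at 100 mg/kg (A10i) and 4 received the solvent DMSO, and osmotic minipumps delivered both. Healthy heart tissue came from 3 further mice that had a sham operation and DMSO, and whose labels name no day. Each library is a whole piece of tissue with all its cell types.

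At the disc, cadherins of neighbouring cells bind each other and hand the force of contraction to the actin of both cells through catenins. Desmosomes do the same for the desmin filaments through desmosomal cadherins, plakoglobin, plakophilin and desmoplakin, and gap junctions carry the electrical impulse. Xin proteins bind actin and the catenin partners of N-cadherin at the disc. N-cadherin, the product of Cdh2, is known to be cut by ADAM10 at the cell surface. Such cutting acts on protein, and the libraries measured mRNA alone.

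The libraries held 21702623 to 29511768 counts each, and the groups' ranges overlapped. Values below are CPM, that is counts scaled to a common library total, here after correction by the trimmed mean of M values (TMM), and fold changes are on the log2 scale with their standard error (SE). A gene was called at an adjusted p under 0.01 in edgeR's quasi-likelihood test, which compared 2 groups at a time. Values per mouse are listed in the order S1, S2 and S3 (sham), A105, A127, A128 and A129 (DMSO) and A116, A117, A119 and A120 (A10i). Both comparisons with sham share the sham mice, and the comparison of A10i with DMSO shares a group with each of them. The 10 genes had from 587 counts in a library (Ctnna3) to 57086 (Dsp). The cardiomyocyte marker list (12 genes such as Myh6, Tnnt2 and Ryr2, all detected in every library) summed to 106520 to 108910 CPM in sham, 51759 to 74328 in DMSO and 62650 to 85397 in A10i hearts. Of these markers, 6 of 12 were called lower in DMSO against sham and 3 of 12 in A10i against sham, with medians of -0.61 and -0.42. In DMSO against sham 10 were negative and 2 positive, from -1.19 for Myh6 to 0.19 for Actn2, with Tnnt2 at 0.10. All 12 were negative in A10i against sham. Myh6 and Atp2a2 were the largest parts of the sham sum, with means of 38256 and 18791 CPM, against 16795 and 9332 in DMSO mice. In such bulk tissue, fewer cardiomyocytes and less RNA per cardiomyocyte cannot be told apart. The marker sums of macrophages (196 to 213 CPM in sham, 293 to 472 in DMSO, 395 to 658 in A10i) and fibroblasts (1017 to 1096, 1586 to 4730 and 3809 to 6304) did not overlap between sham and infarcted hearts. Their part in the levels of the 10 genes was not tested.

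None of the 10 genes was called in DMSO against sham (0 of 10), where 22.5% of 17117 genes tested were called. None was called in A10i against sham either (0 of 10, with 22.9% of 16971 genes called). In A10i against DMSO 0 of 10 were called, with 0.0% of 16792 genes called by edgeR after the filter on low counts. At an unadjusted p under 0.05 in edgeR's test, 1 of 10 passed in DMSO against sham (49.3% of all genes), 3 of 10 in A10i against sham (48.3%) and 3 of 10 in A10i against DMSO (13.8%). DESeq2 (27.6% of all genes called) and limma-voom (21.0%) called Xirp1 in DMSO against sham, and DESeq2 called Jup in A10i against sham (25.4%). In A10i against DMSO both tools called 0 of 10. Over all genes in that comparison limma-voom called 0.0%, and DESeq2 called 1.32%, which is 106 genes higher and 125 lower. Without the filter on low counts edgeR called 18 higher and 25 lower there, and in a joint fit of all 11 libraries 2 higher and 9 lower, so the count of 0 over all genes belongs to the filtered fit of these 2 groups. The gene nearest to the threshold was Xirp1, at 2.43 times the sham level in DMSO mice with an adjusted p of 0.0126 in edgeR's test. The log2 fold changes of the 8 genes outside the Xin pair ran from -0.27 to 0.27 in DMSO against sham, where the cardiomyocyte markers had a median of -0.61. Directions against sham are given for TMM scaling. With scaling by the cardiomyocyte markers all 10 genes were positive in DMSO mice, but the median of all genes also moved, to 0.59. Dsp, Dsg2, Ctnna3 and Dsc2 lay below that median.

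**Figure D1:**
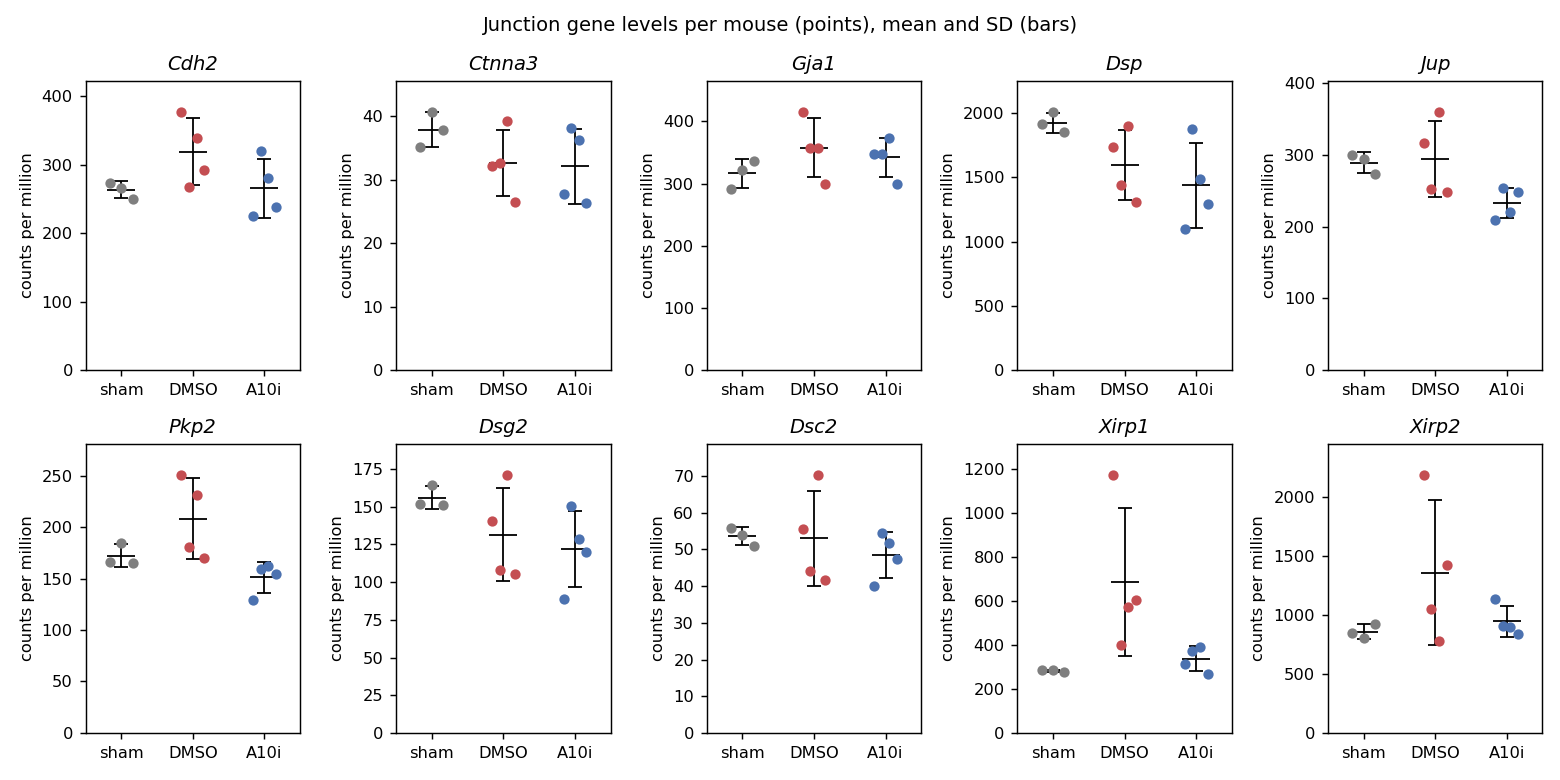
CPM (y axes, from 0) of the 10 genes in each mouse (points) of the sham, DMSO and A10i groups, with the mean and SD as bars. Sham mice lie close together for every gene, and a single DMSO mouse reaches 1174 CPM for Xirp1 and 2188 for Xirp2.

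The genes differed widely in level. Divided by the exon length in kilobases, CPM in sham hearts was highest for Dsp at 199 ± 8.08 per kilobase (SD, n = 3) and lowest for Ctnna3 at 5.24 ± 0.382. Xirp2 followed Dsp at 59.7 ± 4.24 per kilobase. Below it came Xirp1 at 45.3 ± 0.94 and Jup at 44.9 ± 2.22, whose ranges overlapped. Cdh2, Pkp2 and Gja1 then formed a run of overlapping neighbours between 32.7 and 30.9 per kilobase. Dsg2 at 18.9 ± 0.912 and Dsc2 at 10.2 ± 0.46 each stood apart from their neighbours. In DMSO mice the order began with Dsp at 165 ± 27.9, Xirp1 at 110.3 ± 54.1 and Xirp2 at 94.5 ± 42.6 per kilobase (SD, n = 4), and these neighbours overlapped. In A10i mice Dsp at 149 ± 34.4 was again apart from Xirp2 at 65.7 ± 9.16 and Xirp1 at 54.2 ± 8.99.

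Cdh2 encodes N-cadherin, the cadherin of the cardiac adherens junction. Its level was 274, 267 and 249.8 CPM in the sham mice, 377, 267, 339.8 and 293 in the DMSO mice and 225, 319.9, 281 and 238 in the A10i mice. All 3 groups overlapped, and the highest values were in DMSO mice A105 and A128. The log2 fold change was 0.27 ± 0.13 (SE) in DMSO against sham (edgeR adjusted p = 0.110), 0.02 ± 0.12 in A10i against sham (0.922) and -0.26 ± 0.15 in A10i against DMSO (0.482). The call against sham depended on the scaling. Cdh2 was called in DMSO against sham with library size alone (0.47, adjusted p = 0.0053 in edgeR) and with scaling by cardiomyocyte markers (0.85, 0.00039), and in A10i against sham with the marker scaling (0.43, 0.0075). In A10i against DMSO none of 9 alternative settings called it.

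Ctnna3 encodes αT-catenin, which links cadherin to actin and also binds plakophilin-2. Its CPM were 35.2, 40.7 and 37.8 in sham, 32.2, 32.7, 39.3 and 26.5 in DMSO and 27.8, 38.2, 36.2 and 26.4 in A10i hearts. The 2 infarcted groups covered almost the same range, with log2 fold changes of -0.22 ± 0.12 (DMSO) and -0.23 ± 0.13 (A10i) against sham. Between A10i and DMSO the difference was -0.02 ± 0.15 (edgeR adjusted p = 0.973).

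Gja1 encodes connexin 43, the main gap junction protein of the working ventricle. It had 291, 322 and 337 CPM in sham, 415, 358, 358 and 299 in DMSO and 347, 348, 374 and 299 in A10i hearts. The groups overlapped throughout. Its log2 fold changes were 0.17 ± 0.12 (DMSO) and 0.11 ± 0.10 (A10i) against sham and -0.06 ± 0.12 between A10i and DMSO, with edgeR adjusted p-values of 0.284, 0.376 and 0.866.

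Dsp encodes desmoplakin, which ties the desmosome to desmin. Its CPM were 1916, 2009 and 1854 in sham, 1734, 1442, 1899.6 and 1308 in DMSO and 1099, 1876, 1487 and 1291 in A10i hearts. Only DMSO mouse A128 and A10i mouse A117 reached the sham range, and the other 6 infarcted hearts lay below it. The log2 fold change was -0.27 ± 0.14 in DMSO (edgeR adjusted p = 0.152) and -0.42 ± 0.16 in A10i (0.0625) against sham. Without A10i mouse A117 the latter was -0.57 with an adjusted p of 0.0076 in the same test. That was 1 of 7 fits with a mouse left out, over which the adjusted p reached 0.172, and no other fit passed. Of 9 alternative settings 0 called Dsp in A10i against sham.

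Jup encodes plakoglobin, which sits in both desmosome and adherens junction. It had 301, 294 and 273 CPM in sham, 316, 252, 359.9 and 249 in DMSO and 209.8, 254, 221 and 248 in A10i hearts. All 4 A10i mice lay below all 3 sham mice, whereas the DMSO mice spanned them. In A10i against sham the log2 fold change was -0.31 ± 0.09 with an edgeR adjusted p of 0.0199, short of the threshold. Of 9 other settings it passed in 1, DESeq2 (adjusted p = 0.0034), and the adjusted p reached 0.352 over them. Of 7 edgeR fits with a mouse left out it passed in 1, without A10i mouse A116 (0.0095). The largest adjusted p of these fits was 0.0862. Against cardiomyocyte markers the log2 fold change turned to 0.11, where the median of all genes was 0.42. In DMSO against sham the value was 0.02 ± 0.14, and in A10i against DMSO it was -0.33 ± 0.14 (edgeR adjusted p = 0.322).

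Pkp2 encodes plakophilin-2, a plaque protein that is often mutated in arrhythmogenic cardiomyopathy. Its CPM were 167, 185 and 165 in sham, 251, 181, 232 and 169.6 in DMSO and 129.1, 159, 162 and 155 in A10i hearts. All A10i mice lay below all DMSO and all sham mice. Pkp2 differed between A10i and DMSO by -0.46 ± 0.14 with an unadjusted p of 0.0087 and an adjusted p of 0.197 in edgeR's test, and over 9 alternative settings the adjusted p ranged from 0.0712 to 0.208. Against sham the log2 fold changes were 0.27 ± 0.14 in DMSO and -0.18 ± 0.09 in A10i mice. Relative to cardiomyocyte markers the A10i value turned to 0.23, where the median of all genes was 0.42.

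Dsg2 and Dsc2 encode desmoglein-2 and desmocollin-2, the desmosomal cadherins of the heart. Dsg2 had 152, 165 and 151 CPM in sham, 141, 108, 171 and 106 in DMSO and 88.9, 150.3, 128.9 and 119.9 in A10i hearts. Dsc2 had 55.9, 53.9 and 51.0 CPM in sham, 55.6, 44.2, 70.3 and 41.8 in DMSO and 40.1, 54.3, 51.8 and 47.4 in A10i hearts. All 4 A10i mice lay below the sham range for Dsg2, the nearest by under 1 CPM, and no other comparison of the pair was free of overlap. The log2 fold changes against sham were -0.25 ± 0.16 (DMSO) and -0.35 ± 0.15 (A10i) for Dsg2. For Dsc2 they were -0.02 ± 0.17 and -0.14 ± 0.10. The A10i and DMSO groups differed by -0.11 ± 0.19 for Dsg2 and -0.13 ± 0.17 for Dsc2, with edgeR adjusted p-values of 0.853 and 0.787.

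Xirp1 encodes Xin, an actin-binding repeat protein of the disc. Its CPM were 284, 287 and 275 in the sham mice, 1174, 399.6, 573 and 603 in the DMSO mice and 314, 373, 392 and 269.9 in the A10i mice. Every DMSO mouse lay above every sham mouse and every A10i mouse, and 3 of 4 A10i mice lay above the sham range. The log2 fold change was 1.28 ± 0.32 in DMSO against sham (edgeR adjusted p = 0.0126). This value passed 0.01 under 6 of 9 other settings, and the adjusted p ranged from 0.0014 to 0.0878 over them. DMSO mouse A105 stood highest, and without it the value was 0.88 with an adjusted p of 0.0029 in edgeR's test. Without DMSO mouse A127 the value was 1.47 and the adjusted p 0.0047. With any other mouse left out it did not pass, and the adjusted p was 0.020 (A128), 0.0482 (A129), 0.0501 (S1), 0.0467 (S2) or 0.053 (S3).

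In A10i against DMSO, Xirp1 had a log2 fold change of -1.02 ± 0.30, which is 0.492 times the DMSO level. The unadjusted p was 0.0068 and the adjusted p 0.184 in edgeR's test. The adjusted p ranged from 0.0166 (DESeq2) to 0.419 (no filter on low counts) over 9 other settings, so no setting called it. Without DMSO mouse A105 the value was -0.64, with an adjusted p of 0.284. Against sham, A10i mice had 0.26 ± 0.12 (edgeR adjusted p = 0.115).

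Xirp2 encodes the second Xin protein of heart and skeletal muscle. It had 851, 801 and 922 CPM in sham, 2188, 1049, 776 and 1422 in DMSO and 1137, 906, 898 and 838 in A10i hearts. DMSO mouse A128 was below all sham mice while A105 was above all of them, so the groups overlapped. The log2 fold changes were 0.66 ± 0.31 in DMSO (edgeR adjusted p = 0.116) and 0.14 ± 0.12 in A10i (0.374) against sham. Between A10i and DMSO mice it differed by -0.52 ± 0.28 (0.453), and without DMSO mouse A105 it was -0.19.

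**Figure D2:**
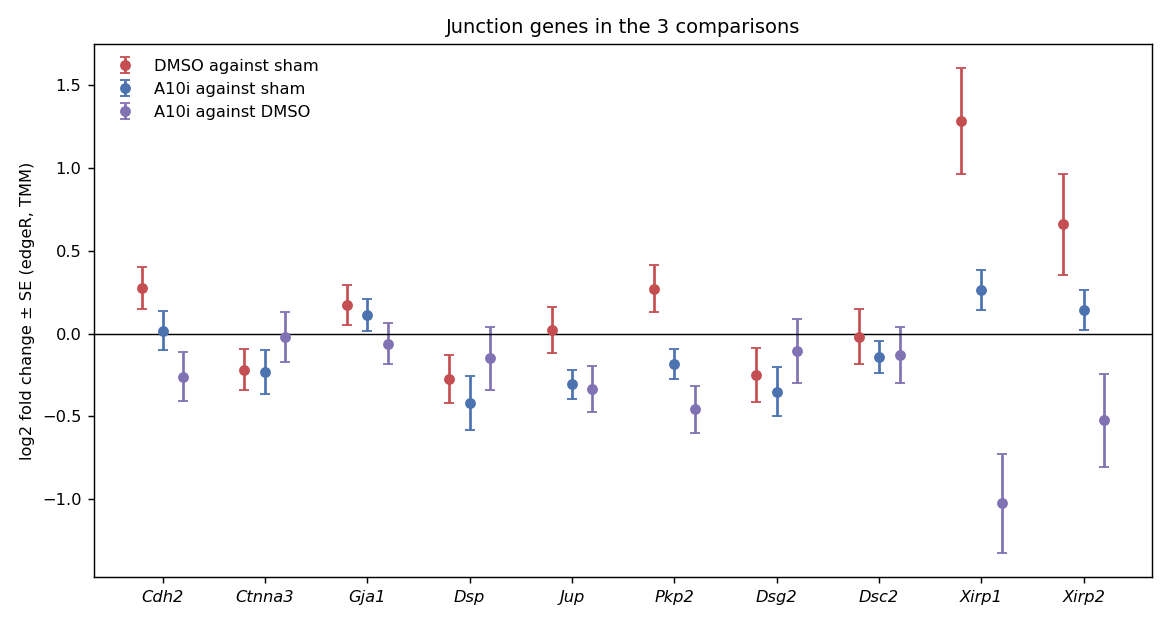
Log2 fold change (y axis, edgeR after TMM, bars ± SE) of the 10 genes (x axis) in DMSO against sham, A10i against sham and A10i against DMSO. Xirp1 is the gene farthest from 0 in DMSO against sham, at 1.28, and in A10i against DMSO, at -1.02.

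The stretch before the annotated start is shown for Xirp2, whose level ran from 776 to 2188 CPM among DMSO mice, and for Gja1, at 299 to 415 CPM there. For both genes the groups overlapped in all comparisons. Both are the 150 bases before the start in RefSeq (GRCm38.p6, plus strand), printed 5′ to 3′. Capitals mark matches, on either strand, to 3 motifs that were searched: CTANNNNTAG of MEF2, TGANTCA of AP-1 and CATTCC of TEAD factors. N stands for any base, so the letters of MEF2 and AP-1 were searched in a loose form.
Xirp2 (chr2:67445852-67446001): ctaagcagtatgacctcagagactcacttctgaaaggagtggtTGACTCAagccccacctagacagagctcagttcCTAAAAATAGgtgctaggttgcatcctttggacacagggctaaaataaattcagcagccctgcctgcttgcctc
Gja1 (chr10:56377150-56377299): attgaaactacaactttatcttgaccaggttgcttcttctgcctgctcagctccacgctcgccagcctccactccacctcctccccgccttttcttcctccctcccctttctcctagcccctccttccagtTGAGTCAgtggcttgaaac

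The MEF2 match of Xirp2 starts 74 bases before the start and its AP-1 match 107 bases before it, and the AP-1 match of Gja1 starts 19 bases before its start. In windows of the same length, 1.82% of 32851 promoters in the table held the MEF2 letters, 4.24% the AP-1 letters and 7.59% the TEAD letters. Among 5 of the 10 genes that the table holds, Dsp and Jup had none of the 3 motifs there, and Ctnna3 had the TEAD letters at 1 of 3 starts. A match is a description of letters and not a binding site. The row of Xirp2 in the count table begins upstream of this start, at chr2:67173834, and runs to 67526615.

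Among the 4 DMSO mice, the genes fell into 2 sets by the mouse in which they were highest. A105 was highest for 5 genes (Cdh2, Gja1, Pkp2, Xirp1 and Xirp2) and A128 for the other 5, which were Dsp, Jup, Dsg2, Dsc2 and Ctnna3. A129 was lowest for 7 of 10. Among A10i mice, A117 was highest for 6 genes and A116 lowest for 6. The cardiomyocyte marker sum was 74328, 68207, 61599 and 51759 CPM in DMSO mice A105, A127, A128 and A129. In A10i mice A116, A117, A119 and A120 it was 62650, 74441, 85397 and 77119 CPM. The sum was thus lowest in A129 and A116, but A119 and A120 were above A117, and its part in these rankings was not tested. Mouse A105 also had the lowest fibroblast marker sum of the infarcted hearts, at 1586 CPM.

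The SD of log2 CPM between mice shows how unevenly the Xin genes behaved among DMSO mice. In DMSO mice it was 0.65 for Xirp1 and 0.64 for Xirp2, against a median of 0.22 over all genes that passed the filter. In sham mice the SD was 0.03 for Xirp1 and 0.10 for Xirp2, and that of the median gene was 0.10. In A10i mice it was 0.25 for Xirp1 and 0.19 for Xirp2, with a median of 0.18 over all genes and 0.33 for Dsp. Gja1 had the lowest SD of the 10 genes in DMSO mice, at 0.19.

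**Figure D3:**
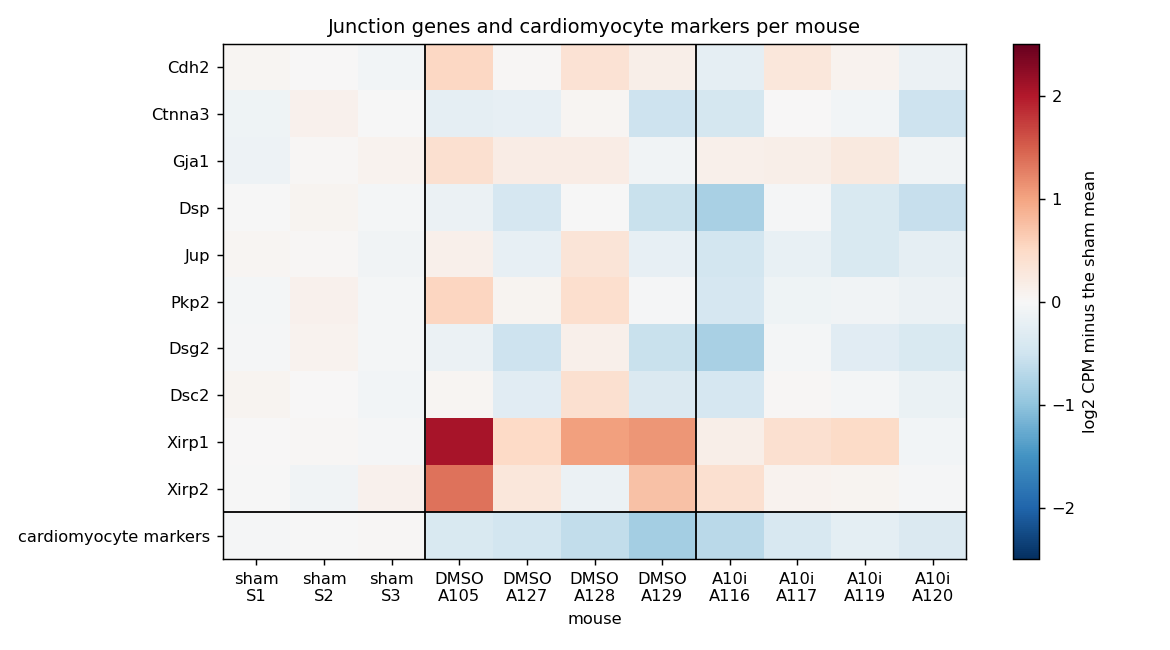
Log2 CPM minus the mean of the sham mice (colour) for the 10 genes and, in the bottom row, the mean of 12 cardiomyocyte markers, in each of 11 mice (x axis). Xirp1 is above sham in all 4 DMSO mice, whereas the cardiomyocyte markers are below sham in all 8 infarcted hearts.

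Ratios of 2 genes within a library do not depend on scaling. The log2 ratio of Dsp to Cdh2 counts was 2.81, 2.91 and 2.89 in sham, 2.20, 2.43, 2.48 and 2.16 in DMSO and 2.29, 2.55, 2.40 and 2.44 in A10i hearts. All 8 infarcted hearts lay below all 3 sham hearts, by 0.55 on average in DMSO and 0.45 in A10i mice. The same held for Jup to Cdh2, which was 0.13 to 0.14 in sham, -0.25 to 0.08 in DMSO and -0.35 to 0.06 in A10i hearts. Thus desmoplakin and plakoglobin mRNA were lower relative to N-cadherin mRNA in each infarcted heart, and a ratio does not say which gene of the pair moved. The exact permutation test (two-sided) gave p = 0.0571 for each of these 4 differences, the smallest value that 3 against 4 mice allow. Among single genes, 48.7% in DMSO and 48.3% in A10i against sham were also free of overlap, and no such share was computed for ratios.

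Ctnna3 to Cdh2 was -2.96 to -2.71 in sham and -3.55 to -3.03 in DMSO mice, without overlap, and -3.17 to -2.96 in A10i mice, which overlapped sham. Dsc2 to Dsg2 was -1.61 to -1.45 in sham, -1.34 to -1.28 in DMSO and -1.47 to -1.15 in A10i hearts. Xirp1 to Xirp2 was -1.74 to -1.48 in sham, -1.39 to -0.44 in DMSO and -1.85 to -1.20 in A10i hearts, so Xirp1 was higher relative to Xirp2 in every DMSO mouse than in every sham mouse. Gja1 to Cdh2 overlapped in all comparisons. Over the 18 tests of 6 ratios in 3 comparisons, no adjusted p was below 0.147 (exact permutation tests, Benjamini-Hochberg adjustment).

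The direction of the 10 genes against sham depended on the scaling. With TMM, 6 of 10 log2 fold changes were positive in DMSO against sham (median 0.10, and 0.00 over all genes). When libraries were scaled by the 12 cardiomyocyte markers, all 10 were positive, the median was 0.67 and 6 genes were called (Cdh2, Gja1, Jup, Pkp2, Xirp1 and Xirp2, with 44.3% of all genes called). That scaling moved the median of all genes to 0.59 and called 7403 genes higher and 179 lower, against 2215 and 1643 with TMM. Relative to this shift, Cdh2 (0.85), Pkp2 (0.84), Gja1 (0.74), Xirp2 (1.23) and Xirp1 (1.84) lay above the median gene, and Jup (0.60) was close to it. Dsp (0.30), Dsg2 (0.33), Ctnna3 (0.36) and, by a small margin, Dsc2 (0.56) lay below it. In A10i against sham, 4 of 10 were positive with TMM (median -0.16) and 9 of 10 with the marker scaling (median 0.25, and 0.42 over all genes). Below the median gene there were Dsp (-0.010), Dsg2 (0.054), Jup (0.11), Ctnna3 (0.18), Pkp2 (0.23) and Dsc2 (0.27). There 3 genes were called, namely Cdh2, Gja1 and Xirp1 (30.6% of all genes), and all genes split 5055 higher to 143 lower, against 2333 and 1546 with TMM. Library size alone moved the median of all genes to 0.21 in DMSO and 0.18 in A10i against sham, with splits of 3330 to 708 and 3436 to 577.

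**Figure D4:**
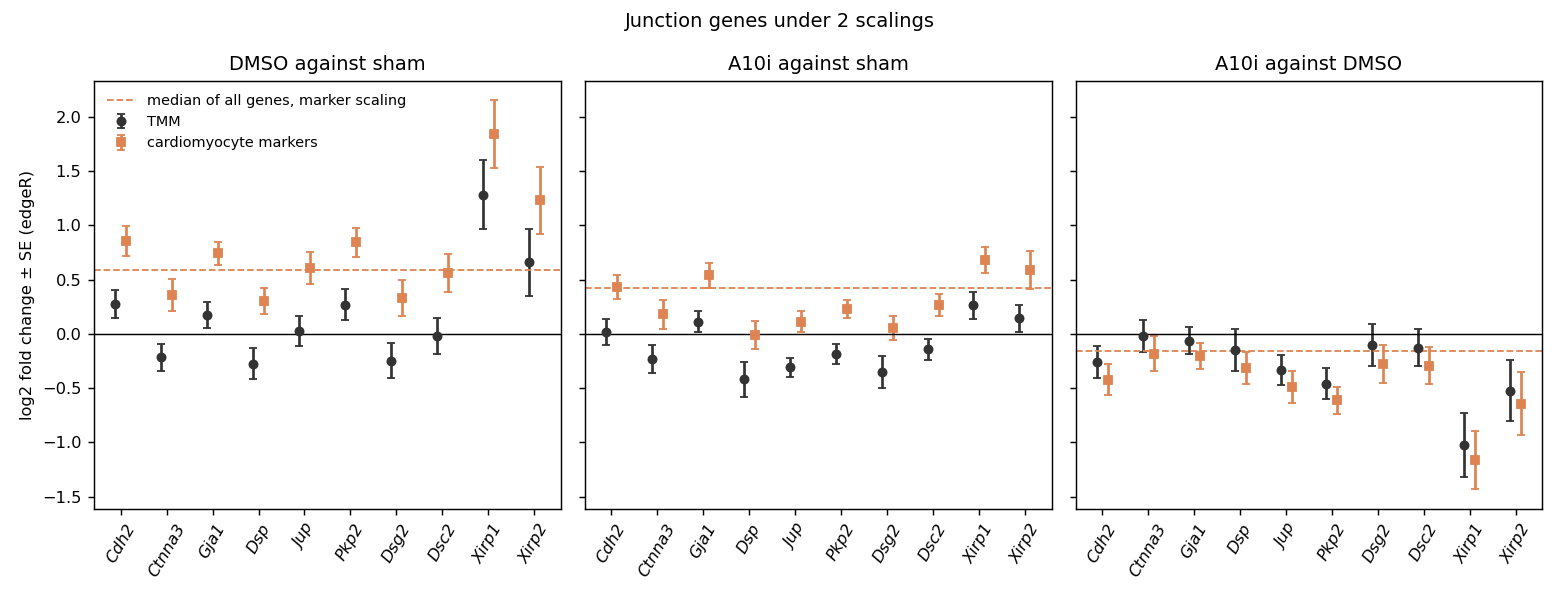
Log2 fold change (y axes, bars ± SE) of the 10 genes with TMM (circles) and with scaling by cardiomyocyte markers (squares) in the 3 comparisons. Dashed lines give the median of all genes under the marker scaling, at 0.59, 0.42 and -0.16, and the squares of Dsp, Dsg2, Dsc2 and Ctnna3 lie under that line in both comparisons with sham, those of Jup and Pkp2 in A10i against sham alone.

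Between A10i and DMSO, all 10 log2 fold changes were negative, with a median of -0.20 against 0.00 over all genes. The signs of genes in the same mice are not independent. Without DMSO mouse A128, 3 of 10 were positive and the median was -0.14. Marker sums of other cells also separated these groups, and those of neutrophils were 67.9 to 126 CPM in DMSO and 13.6 to 47.6 in A10i hearts. Endothelial sums were 548 to 632 and 657 to 755 CPM, and those of smooth muscle and pericytes 728 to 880 and 917 to 975. Of the single endothelial genes, only Kdr and Tie1 were free of overlap, and 6 of 7 had positive log2 fold changes, with Cldn5 at -0.10. Each single gene of smooth muscle and pericytes overlapped, although all 7 log2 fold changes were positive. Sums of the adipocyte list were 399.6 to 435 and 459 to 592, nearly all of it Fabp4 (388 to 419 and 440 to 574). Of its other genes, Cfd did not overlap (1.53 to 3.61 and 4.42 to 11.3 CPM), but Adipoq, Plin1 and Pparg did. The cardiomyocyte sums overlapped, and 9 of 12 of those markers had positive log2 fold changes (median 0.18, with 0 called). The part of these cells in the differences of the 10 genes was not tested. The groups did not overlap for Xirp1 and Pkp2 (2 of 10, and 8.12% of all genes). In DMSO against sham 1 of 10 was free of overlap (Xirp1, with 48.7% of all genes), and in A10i against sham 3 of 10 were (Jup, Pkp2 and Dsg2, with 48.3%).

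Adam10 itself, the target of the inhibitor, had 57.6, 59.3 and 54.6 CPM in sham, 56.9, 71.1, 60.2 and 93.2 in DMSO and 91.0, 70.1, 69.8 and 67.6 in A10i hearts. All A10i mice lay above all sham mice. The log2 fold change in A10i against sham was 0.39 ± 0.10 (edgeR adjusted p = 0.0142). Of 7 edgeR fits with a mouse left out it passed 0.01 in 1, without A10i mouse A116, at 0.28 and 0.0017. In DMSO against sham it was 0.30 ± 0.16 (0.164), and in A10i against DMSO 0.09 ± 0.16 (0.853).

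Other junction genes were followed in 4 lists of 67 genes in all. In DMSO against sham 44 of them passed the filter on low counts, and 8 were called higher and 7 lower, which is 34.1% (12.9% and 9.6% of all genes were called higher and lower). In A10i against sham 8 of 46 were called higher and 8 lower (13.7% and 9.11% of all genes). In A10i against DMSO 0 of 46 were called by edgeR, by DESeq2 or by limma-voom. Of the 46, 9 had an unadjusted p under 0.05 in edgeR's test, as did 13.8% of all genes. Leaving out a sham mouse took the 15 calls of DMSO against sham to 6 (S1), 7 (S2) or 8 (S3). The 16 calls of A10i against sham went to 9 without sham mouse S2 and to 10 without S3 or A10i mouse A120.

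Genes of the disc's anchors and channels moved in 1 direction where they were called. In DMSO against sham 0 of 17 were called higher and 4 lower (12.9% and 9.6% of all genes), with a list median of -0.26. Of the 17 log2 fold changes 7 were positive. The largest was Flnc at 0.94 (edgeR adjusted p = 0.0432), farther from 0 than any called gene of the list. Tmem65, which encodes a membrane protein of the disc, was 255 ± 8.14 CPM in sham (SD, n = 3) and 150.4 ± 17.5 in DMSO mice (n = 4), a log2 fold change of -0.77. Ank2 (ankyrin-B, an anchor of ion transporters) went from 232 ± 3.95 to 149 ± 20.4 CPM, at -0.64. Tjp1 (ZO-1, which binds connexin 43) went from 143 ± 2.57 to 98.8 ± 6.19 CPM, at -0.54, and Bves, a membrane protein of striated muscle, from 81.5 ± 2.5 to 61.2 ± 5.3 CPM, at -0.42. With scaling by cardiomyocyte markers Tjp1 and Bves turned positive, at 0.057 and 0.17, and Ank2 and Tmem65 were no longer called. In A10i against sham 6 of 17 were called lower and 0 higher (9.11% and 13.7% of all genes). Tmem65, Ank2 and Tjp1 were among those called lower, at -0.40, -0.68 and -0.39. With each mouse left out in turn, the call was lost in 5 of 7 fits for Tmem65, in 0 for Ank2 and in 2 for Tjp1. The same genes were 193 ± 20.6, 145 ± 10.7 and 108 ± 6.06 CPM in A10i mice.

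Adherens junction genes included both directions. In DMSO against sham 5 of 17 were called higher and 2 lower (12.9% and 9.6% of all genes), with a list median of 0.04. The 4 with the largest changes rose from low levels. Cdh3 (P-cadherin, an epithelial cadherin) went from 0.489 ± 0.271 CPM in sham to 2.92 ± 1.11 in DMSO and 5.26 ± 1.08 in A10i mice. Nectin1, a cell adhesion molecule of the immunoglobulin family, went from 3.48 ± 0.609 to 9.01 ± 1.9 and 7.02 ± 1.96 CPM. Cdh11, the cadherin of fibroblasts and other mesenchymal cells, went from 8.06 ± 1.16 to 13.4 ± 2.53 and 17.9 ± 1.85 CPM. Cdh1 (E-cadherin) had 5 counts in all sham libraries together, and 86 in DMSO, a ratio of 11.8 with a 95% counting interval of 4.85 to 37.2. The epithelial keratins and other markers of mesothelium, the outer lining of the heart, were summed. The sums were 25.3 to 39.0 CPM in sham, 44.1 to 70.3 in DMSO and 57.5 to 121 in A10i hearts. In each comparison with sham 5 of 7 were called higher, namely the keratins Krt8, Krt18 and Krt19 with Upk1b and Wt1. Msln and Upk3b were called in neither. Upk3b had a negative log2 fold change in DMSO against sham, at -0.66, and was at 0.10 in A10i against sham. The part of mesothelium in the rise of Cdh1 and Cdh3 was not tested.

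Of the other connexins, 2 of 6 tested were called higher in DMSO against sham and 0 lower (12.9% and 9.6% of all genes). Positive log2 fold changes were found for 4 of the 6. Gja5 (connexin 40, of conduction tissue, atria and arterial endothelium) went from 6.86 ± 0.624 CPM in sham to 11 ± 2.03 in DMSO and 12.4 ± 1.3 in A10i mice, with log2 fold changes of 0.68 and 0.86. Gjb5 had 6 counts over the sham libraries and 170 over the DMSO libraries, a ratio of 19.4 with a counting interval of 8.72 to 53.6. This connexin is known mainly from skin and other epithelia.

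The list of other desmosome genes split evenly, with 1 of 4 tested higher and 1 lower in DMSO against sham (12.9% and 9.6% of all genes). Perp, a desmosomal membrane protein and p53 target, went from 138 ± 4.23 CPM in sham to 208 ± 33.3 in DMSO (log2 fold change 0.58) and 175 ± 21.0 in A10i mice. Pkp4, a plakophilin relative found at adherens junctions, went from 218 ± 7.88 to 148 ± 17.8 CPM in both infarcted groups, at -0.56 in each. With cardiomyocyte marker scaling Pkp4 turned to 0.020 in DMSO against sham. The desmogleins and desmocollins of skin did not pass the filter. Of the 12 genes named from the 4 lists, 4 kept their call in DMSO against sham whichever mouse was left out (Gjb5, Nectin1, Tjp1 and Tmem65). In A10i against sham 10 of these genes were called, and 6 kept their call in every omission (Ank2, Cdh1, Cdh3, Cdh11, Gja5 and Gjb5).

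**Figure D5:**
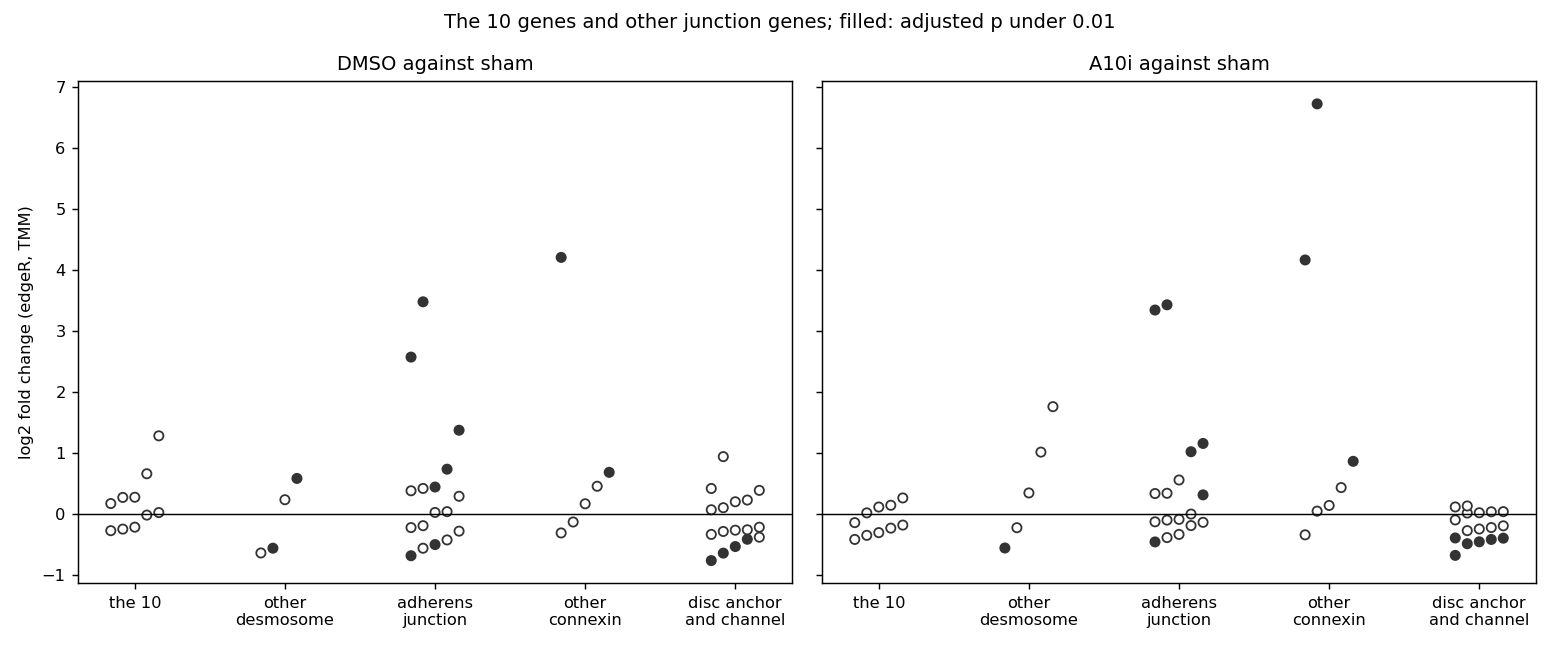
Log2 fold change (y axes, edgeR after TMM) against sham of the 10 genes and of the tested genes in 4 lists of other junction genes (x axes) in DMSO (left) and A10i mice (right). Filled circles are genes called at an adjusted p under 0.01, and none of the 10 genes is filled.

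For each of the 10 genes, the gene with the most similar course over the 11 mice was sought by the root mean square (RMS) difference of log2 CPM, each gene centred on its mean, among 14754 genes with a mean log2 CPM over 0. For Xirp1 this was Flnc (filamin C, an actin cross-linker of muscle that is also in the anchor list), with an RMS difference of 0.18. Flnc was 505 ± 29.2 CPM in sham, 971 ± 489 in DMSO and 545 ± 86.3 in A10i hearts, and its highest mouse had 1688 CPM. For Xirp2 it was Tspan9, at 0.19. For Dsp it was Hadha, an enzyme of mitochondrial fatty acid oxidation, at 0.08, and for Ctnna3 Cacna1c, the pore subunit of the cardiac L-type calcium channel, at 0.08. Setd7 was nearest to Gja1, Adk to Jup, Prpf40b to Pkp2, Nadk2 to Dsg2, Trim68 to Dsc2 and the pseudogene Morf4l1-ps1 to Cdh2, with RMS differences of 0.06 to 0.09. Each was the nearest of many genes, so the small distances are a description.

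The genes lie at the following places of GRCm38, the build of the counts. Gja1 (chr10:56377330-56402513), Ctnna3 (chr10:63430098-65003667), Dsp (chr13:38151294-38198577), Pkp2 (chr16:16213318-16272712) and Xirp2 are on the plus strand. Jup (chr11:100368958-100397763) and Xirp1 (chr9:120013755-120023598) are on the minus strand. Cdh2 (chr18:16588877-16809246), Dsg2 (chr18:20558074-20604521) and Dsc2 (chr18:20030633-20059554) share 1 chromosome. Their exons overlap a gene on the other strand by 499 bases for Dsp (Gm10129), 330 for Dsg2 (Gm16090) and 168 for Xirp2 (Gm13601), and the strand setting of the counting is not stated. Xirp1 overlaps the span of the macrophage gene Cx3cr1 on the same strand, with 0 exon bases shared. In A10i against DMSO Cx3cr1 was at 1.20 and Xirp1 at -1.02. Whether reads of Cx3cr1 entered the count of Xirp1 was not tested.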

How the data were processed

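The authors aligned read pairs of strand-specific poly(A) libraries to mm10 (GSNAP), and featureCounts gave the number of uniquely aligned reads for each Ensembl gene. The deposited values are raw counts, without normalization. From them, 92 rows of spike-in controls (0.000141% of counts) were left out. Each comparison used its own groups, edgeR's filterByExpr, TMM, robust quasi-likelihood F-tests, two-sided, and Benjamini-Hochberg adjustment over all genes tested, with a threshold of 0.01 as in the study's methods. The script was tested on simulated data. Log2 CPM used a prior count of 2 and ratios a pseudocount of 0.5. Versions were R 4.3.3, edgeR 4.0.16, limma 3.58.1 and DESeq2 1.42.0. Alternatives were DESeq2, limma-voom, other scalings and filters, a joint fit and the omission of each mouse. Total counts were 21702623 to 29511768 per library, and intervals cover counting error only. Labels give mouse identifiers but no batch. Named genes were the 10 members, Adam10, up to 4 called genes per junction list with the largest change in DMSO against sham, list genes called in A10i against DMSO (0) and the gene nearest in course to each member. Cx3cr1 was named after its values were seen. The members and lists were chosen with earlier results of these data known. A connexin gene of the lists is not reported here. Protein and human data were not used here.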

Additional observations from a re-analysis of the deposited data

Results flagged for a closer look

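Among 58 groups of 4 mice tested for a value far from the others (the 10 genes, the named junction genes, Adam10 and the 6 ratios), 2 had such a value, and chance gives about 1 in 20. Adam10 was 91.0 CPM in A10i mouse A116, and the other A10i mice had 67.6 to 70.1 CPM. Gjb5 was 0.991 CPM in A10i mouse A119, and the other A10i mice had 1.67 to 1.78 CPM. None of the 10 junction genes had such a value in either group of 4.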

How the results depend on the processing

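For A10i against DMSO, 0 of the 10 genes and 0 other junction genes were called under every alternative run. In DMSO against sham the count of the 10 genes called was 3 with library size alone, 6 with scaling by cardiomyocyte markers, and 1 with at least 10 counts in every library, DESeq2, limma-voom, all 11 libraries in one fit or a threshold of 0.05, and 0 to 1 when a mouse was left out. In A10i against sham it was 1 with library size alone, DESeq2 or a threshold of 0.05, 3 with the marker scaling, and 0 to 1 when a mouse was left out. Other junction genes called were 6 to 15 (DMSO against sham) and 9 to 19 (A10i against sham) when a mouse was left out. Marker scaling turned Dsp (0.30), Dsg2 (0.33), Dsc2 (0.56), Ctnna3 (0.36), Pkp4 (0.020), Tjp1 (0.057) and Bves (0.17) in DMSO against sham. In A10i against sham it turned Jup (0.11), Pkp2 (0.23), Dsg2 (0.054), Dsc2 (0.27), Ctnna3 (0.18), Tmem65 (0.019), Tjp1 (0.031) and Bves (0.17), and between A10i and DMSO Tjp1 (-0.026) and Adam10 (-0.083). Library size alone turned Dsc2 against sham to 0.18 (DMSO) and 0.039 (A10i), and limma-voom turned Cdh1 to 0.10 in A10i against DMSO. With a mouse left out, values near 0 changed sign for Jup (-0.087 to 0.096) and Dsc2 (-0.19 to 0.081) in DMSO against sham and for Cdh2 (-0.081 to 0.092) in A10i against sham. In A10i against DMSO this held for Gja1 (-0.14 to 0.017), Dsg2 (-0.22 to 0.051), Dsc2 (-0.23 to 0.043), Ctnna3 (-0.11 to 0.085), Pkp4 (-0.073 to 0.072), Cdh1 (-0.38 to 0.44), Gjb5 (-0.13 to 0.12), Ank2 (-0.10 to 0.055), Adam10 (-0.019 to 0.25), and the ratios Jup to Cdh2 (-0.14 to 0.0099) and Dsc2 to Dsg2 (-0.060 to 0.047). The cause of these changes was not tested. Calls over all genes in A10i against DMSO were 0 in edgeR, 106 higher and 125 lower in DESeq2, 18 and 25 without the filter on low counts, and 2 and 9 in the joint fit. Without a sham mouse, calls over all genes in DMSO against sham were 977 higher and 565 lower (S1), 922 and 603 (S2) or 939 and 601 (S3). No paired analysis was possible because the groups share no replicate numbers. The 3 sham and 4 infarcted mice per group limit what could be called, and the labels do not say whether the sham tissue matches the infarct region.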
